A study of Mus musculus with 26 samples.

Results

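The genes described here are 9 ADAM genes that are expressed in testis (Adam1a, Adam2, Adam3, Adam4, Adam5, Adam18, Adam24, Adam26a and Adam32) and Zan, which encodes zonadhesin. They were taken by symbol from the count files of a mouse RNA sequencing series, and all 10 were found among 24682 gene symbols. The series measured whole testis of C57BL/6 mice at postnatal day 21 in 3 sets, each with its own wild-type group: Nkapl knockout (Nkapl-KO), Sox30 knockout (Sox30-KO), and a homozygous Nkapl allele named TGdel (Nkapl TGdel/TGdel). It also measured pachytene spermatocytes and round spermatids, isolated from wild-type and Nkapl knockout mice, whose titles carry the same age. Neither the removed part of Nkapl and Sox30 nor the cells in which a deletion was made is named in the labels, and the series title names a frameshift mutation of NKAPL that no label ties to TGdel by name.

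ADAM proteins are membrane proteins with a metalloprotease-like domain, a disintegrin domain and a cysteine-rich domain. Male germ cells make many of them, first as precursors in the spermatocyte and spermatid, and processed forms then reach the sperm surface. ADAM2 and ADAM3 are needed for sperm to pass from the uterus into the oviduct and to bind the egg coat, and ADAM3 reaches the sperm surface only when a set of chaperones and partner proteins in the endoplasmic reticulum is intact. Zonadhesin is a large protein of the acrosome, the secretory vesicle over the sperm nucleus, and it binds the egg coat.

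By column heading the 26 count files held 23 distinct libraries, since each testis set had 1 pair of files with identical values, which were counted once. That left 3 wild-type and 2 knockout libraries in the Nkapl set, 3 and 2 in the Sox30 set, 2 wild-type and 3 TGdel libraries in the TGdel set, and 2 libraries in each of the 4 sorted groups. For 4 of the 23 libraries the heading and the record of the file name different groups: wild type 3 of the Nkapl set and wild type 3 of the Sox30 set (both recorded as knockout), wild type 2 of the TGdel set (recorded as TGdel) and TGdel 3 (recorded as wild type). Libraries were grouped by heading, and each comparison was repeated with the 19 libraries on which heading and record give the same group. Total counts per library were 20120729 to 25514132 in the Nkapl set, 34167576 to 40010106 in the Sox30 set, 16469667 to 17822056 in the TGdel set and 18155299 to 19569272 in sorted cells. The series' design text calls replicates biological, and where libraries share a source the p-values measure only the spread between these libraries. Between 2 libraries of a group the chi-square per gene was 1.403 to 4.853 in sorted cells and 1.93 to 4.196 in the Nkapl set. It was 6.493 to 16.85 in the TGdel set and 10.547 to 41.951 in the Sox30 set. This value was computed on raw counts and grows with their number, which was highest in the Sox30 set, so the sets were not compared at equal depth. The small p-values in sorted cells and the Nkapl set go with a narrower spread. Its part in them, and whether it covers the variation between animals, was not tested.

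The targeted genes were checked first. Nkapl measured 74.9, 79.5 and 79.9 CPM (counts relative to the library total, after edgeR's TMM scaling) in wild-type testis of its set and 60.8 and 57.8 CPM in knockout testis, which is -0.40 ± 0.05 on the log2 scale (SE, adjusted p = 2.96e-06). In round spermatids it measured 88.4 and 90.3 CPM in the libraries labelled wild type and 24.6 and 23.6 CPM in those labelled knockout. In spermatocytes it went against the labels, with 90.1 and 86.1 CPM in the libraries labelled wild type and 126.8 and 124.6 CPM in those labelled knockout, so these are called by their label throughout. Sox30 measured 77.6, 86.2 and 72.4 CPM in wild-type testis of its set and 44.7 and 61.5 CPM in knockout testis (log2 -0.57 ± 0.15, adjusted p = 0.171). In the TGdel set Nkapl was not lower, with 101 and 102.9 CPM in wild type and 107, 117.7 and 125.7 CPM in TGdel, so that every TGdel library was above wild type (log2 0.20 ± 0.09, adjusted p = 0.328). The sorted cells were checked against 14 round spermatid markers and 12 pachytene markers. The round spermatid markers summed to 5963 to 6219 CPM in wild-type round spermatids and to 2111 to 2180 CPM in spermatocytes labelled wild type, where none of the 14 was at 0. The pachytene markers summed to about the same level in both (9350 to 9790 CPM in spermatocytes and 9707 to 10240 CPM in round spermatids), while 6 of the 12 were lower and 4 higher in round spermatids, with a median log2 change of -0.38 against 0.048 for all genes.

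The ADAM genes fall into 2 kinds by structure in the GENCODE vM21 annotation of GRCm38, and Zan stands apart from both. The ADAM genes with many exons are Adam2 on chromosome 14 (66027329 to 66077733, 21 exons) and a row of neighbours on chromosome 8, Adam18, Adam3, Adam5 and Adam32, that lie on the minus strand within 346.6 kb, from 24602246 to 24948804, with 20, 22, 21 and 22 exons. These 5 encode proteins that lack the zinc-binding protease site. The ADAM genes with 1 or 2 exons are Adam1a (chromosome 5, 121518576 to 121522071), Adam4 (chromosome 12, 81419443 to 81421946), Adam24 (chromosome 8, 40675077 to 40682199) and Adam26a (chromosome 8, 43568278 to 43576707). ADAM1A, ADAM24 (testase 1) and ADAM26A (testase 3) carry a protease site. Zan is on chromosome 5 (137378637 to 137477064) and has 88 exons. Adam26a shares 95.1% of 2345 aligned transcript bases with Adam26b and Adam1a shares 87.2% of 1796 with Adam1b, so reads may have been split between them, and Adam4 lies inside Cox16 on the same strand. Adam1a, Adam2, Adam3, Adam32 and Zan overlap a gene of the opposite strand, and the strand setting of the counting is not given in the sources used here.

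The windows around the start sites of Adam1a and Zan, the 2 members matched in the promoter table, are shown from RefSeq (GRCm38.p6, minus strand, from 250 bases before the start to 50 after it). They were at chr5:121521646-121521945 for Adam1a and at chr5:137477015-137477314 for Zan. The Adam1a window lies wholly inside the GENCODE gene, so the start of Adam1a differs between RefSeq and GENCODE, and the motif search holds for the RefSeq start. Capitals mark matches to 3 motifs, searched on both strands and chosen after the Zan sequence had been seen. The SOX core ACAAT was in 31.0% of 32851 windows of the same length and in neither of these. The RFX X-box core GTTGCNA was in 10.4% of windows and matched in Zan 11 bases before the start. The cAMP response element core TGACG was in 20.8% of windows and matched in Zan 234 bases before the start, on the reverse strand as CGTCA.
Adam1a: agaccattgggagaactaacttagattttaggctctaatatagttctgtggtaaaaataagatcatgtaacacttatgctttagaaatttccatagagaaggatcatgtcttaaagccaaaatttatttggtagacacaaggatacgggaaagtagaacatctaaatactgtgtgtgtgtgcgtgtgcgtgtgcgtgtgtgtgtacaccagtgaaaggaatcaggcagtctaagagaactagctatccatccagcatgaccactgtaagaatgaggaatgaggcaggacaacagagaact
Zan: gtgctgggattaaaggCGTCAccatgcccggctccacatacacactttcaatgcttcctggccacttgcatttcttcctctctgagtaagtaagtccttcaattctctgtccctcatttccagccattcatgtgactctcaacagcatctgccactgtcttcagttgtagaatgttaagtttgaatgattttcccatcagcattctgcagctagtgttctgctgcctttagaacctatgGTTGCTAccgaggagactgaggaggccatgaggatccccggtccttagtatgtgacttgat

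The members spanned a wide range of levels. In CPM per kb of transcript (1 representative transcript per gene), wild-type testis of the Nkapl set had Adam5 at 254.9 ± 4.97 (SD, n = 3), Adam3 at 192 ± 6.12, Adam2 at 183.5 ± 3.42 and Adam32 at 164.6 ± 7.21. Adam18, another ADAM without a protease site, was lower at 42.4 ± 1.44 CPM per kb. The remaining members were far below, with Adam24 at 5.19 ± 0.528, Zan at 3.996 ± 0.0898, Adam1a at 3.52 ± 0.531, Adam4 at 3.50 ± 0.373 and Adam26a at 3.46 ± 0.192 CPM per kb. Libraries of Zan, Adam1a, Adam4 and Adam26a overlapped with those of their neighbours in this order, and the other neighbours did not overlap. In wild-type round spermatids Adam5 (726.6 ± 10.6 CPM per kb, n = 2), Adam3 (695.6 ± 0.436) and Adam32 (442.4 ± 5.29) led. There Adam24 was at 95.4 ± 6.03 CPM per kb and overlapped with Adam18 at 93.7 ± 2.15, and Zan was the lowest at 12.4 ± 0.0281.

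**Figure D1:**
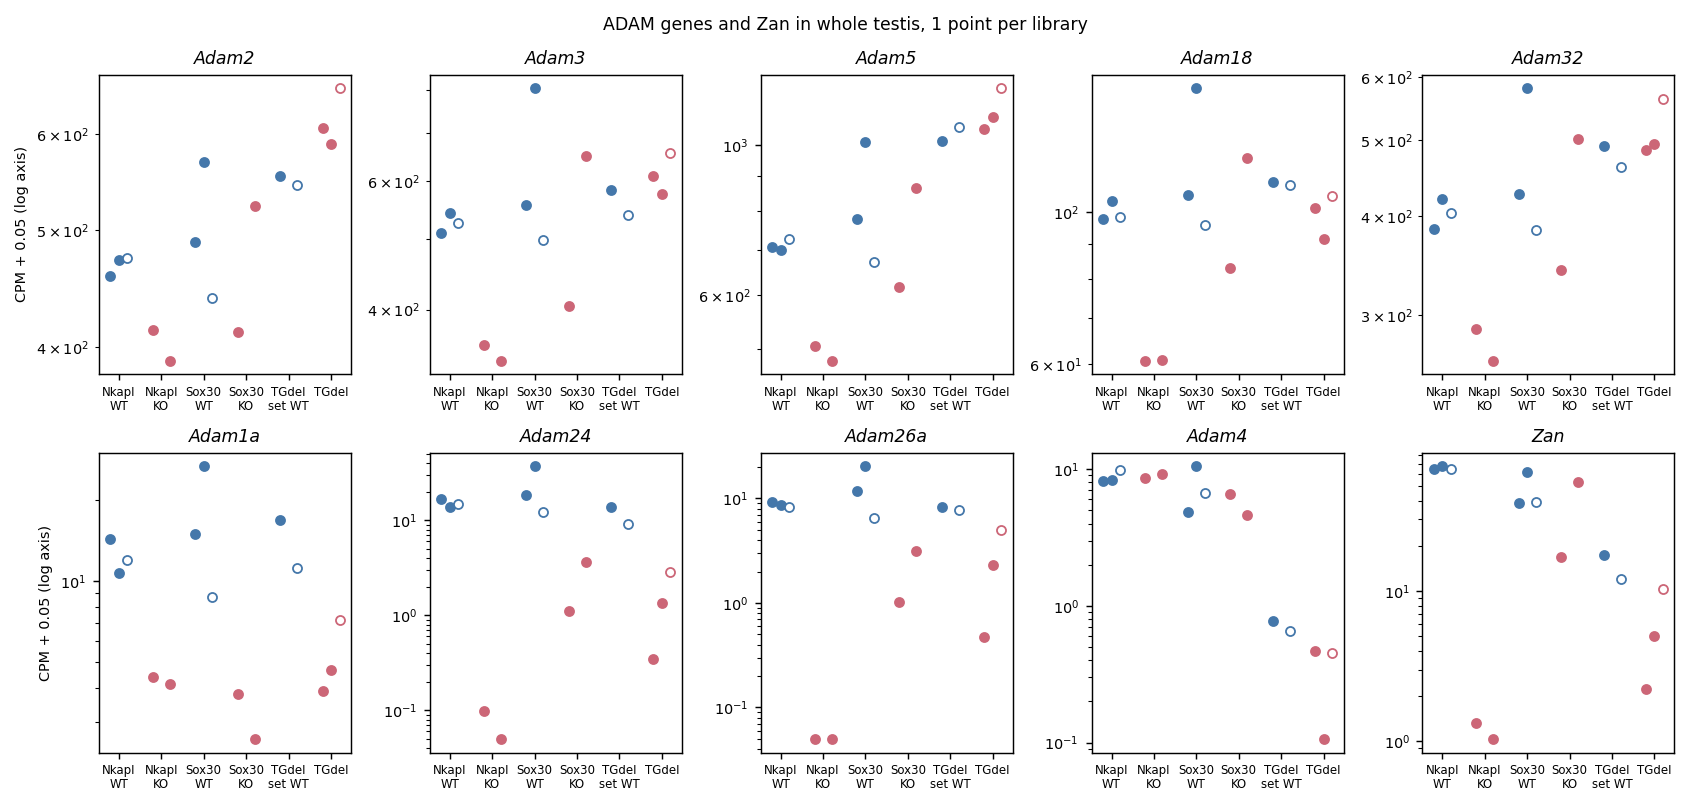
CPM plus 0.05 on a log axis in each whole-testis library (1 point each, blue for wild type, red for mutants, and open where heading and file record name different groups); axis ranges differ between panels. The 2 Nkapl knockout libraries lie below all 3 wild-type libraries for every gene except Adam4, and Adam26a has no counts in them. The share of all genes that parted in this way was not counted.

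In Nkapl knockout testis 9 of the 10 genes fell relative to wild type, against 26.1% of 16937 tested genes called lower. Calls are edgeR's quasi-likelihood test at a Benjamini-Hochberg adjusted p under 0.05, and adjusted p values come from that test where no other tool is given. Without wild type 3, the library recorded as knockout, 9 of the 10 were again called lower, against 23% of tested genes. The median log2 fold change over the 10 was -0.66, and over all tested genes it was 0.0073. In whole testis, fewer cells of a type and less RNA per cell cannot be told apart.

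Zan and the testases lost nearly all of their reads. Zan measured 65.0, 67.6 and 65.0 CPM in wild-type testis and 1.27 and 0.988 CPM in knockout testis, a log2 fold change of -5.88 ± 0.10 (adjusted p = 1.59e-16). Adam24 had 16.6, 13.6 and 14.7 CPM in wild type, and 0.0486 and 0 CPM in knockout. That is 1 read in both knockout libraries against 1003 in the 3 wild-type libraries, a ratio of 702 (95% exact interval 126 to 27740, counting error only). Adam26a had 9.13, 8.53 and 8.18 CPM in wild type and no reads in either knockout library, at least 134.5-fold lower with the floor set at 3 counts over the group. For these 3 genes every knockout library was below every wild-type library by a wide margin, and the share of all genes that parted was not counted.

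Adam1a encodes fertilin alpha, a partner of ADAM2 in the endoplasmic reticulum. It measured 14.3, 10.7 and 11.9 CPM in wild type and 4.33 and 4.10 CPM in knockout, a log2 change of -1.55 ± 0.14 (adjusted p = 9.92e-08), so a good part of its reads remained. Adam4, the other gene with a single exon, measured 8.18, 8.26 and 9.84 CPM in wild type and 8.51 and 9.12 CPM in knockout, so little separated the genotypes. Its groups overlapped and its log2 change was 0.01 ± 0.12 (adjusted p = 0.948).

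The abundant ADAM genes fell by far less. Adam3, which encodes the ADAM best known for binding to the egg coat, measured 510.1, 544 and 526 CPM in wild type and 357 and 340.4 CPM in knockout (log2 -0.59 ± 0.04, adjusted p = 6.05e-10). Its neighbours on chromosome 8 fell by like amounts. Adam18 dropped from 97.7, 103.9 and 98.4 CPM to 60.7 and 60.8 CPM (log2 -0.72 ± 0.05), Adam5 from 706, 701 and 727 CPM to 505 and 481 CPM (log2 -0.53 ± 0.04), and Adam32 from 386, 421 and 403.5 CPM to 289 and 263 CPM (log2 -0.55 ± 0.04). Adam2, which encodes fertilin beta, changed least of the 9, from 458, 471.8 and 474 CPM to 413 and 389.6 CPM (log2 -0.22 ± 0.04, adjusted p = 7.80e-05). Wild-type and knockout libraries did not overlap for any of these 5 genes, and the share of all genes without overlap was not counted.

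Round spermatid markers moved with these falls. Their sum was 247.1 to 306.7 CPM in wild-type testis and 77.4 to 78.7 CPM in knockout testis, 13 of the 13 tested fell, and Prm1 was at 0 in knockout. Pachytene markers summed to 5801 to 5884 CPM in wild type and 5170 to 5248 CPM in knockout, with 2 of 12 higher and 5 lower. Sertoli cell markers summed to 1600 to 1647 CPM and 1930 to 2033 CPM, and 8 of 10 rose. Spermatogonia markers summed to 266.7 to 275.4 CPM and 331 to 339.9 CPM, and 7 of 9 rose. Peritubular myoid cell markers summed to 313.6 to 356.6 CPM and 374.7 to 375.4 CPM, with 4 of 7 higher and 1 lower. The sums of Leydig cell markers (191.6 to 211.7 CPM and 179 to 205.9 CPM) and macrophage markers (64.4 to 70.2 CPM and 62.3 to 63.5 CPM) did not rise. The ribosomal RNA transcript Rn45s took 3.96% to 3.97% of counts in wild type and 5.29% and 5.53% in knockout. The part of these differences in the falls of the ADAM genes and Zan was not tested.

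**Figure D2:**
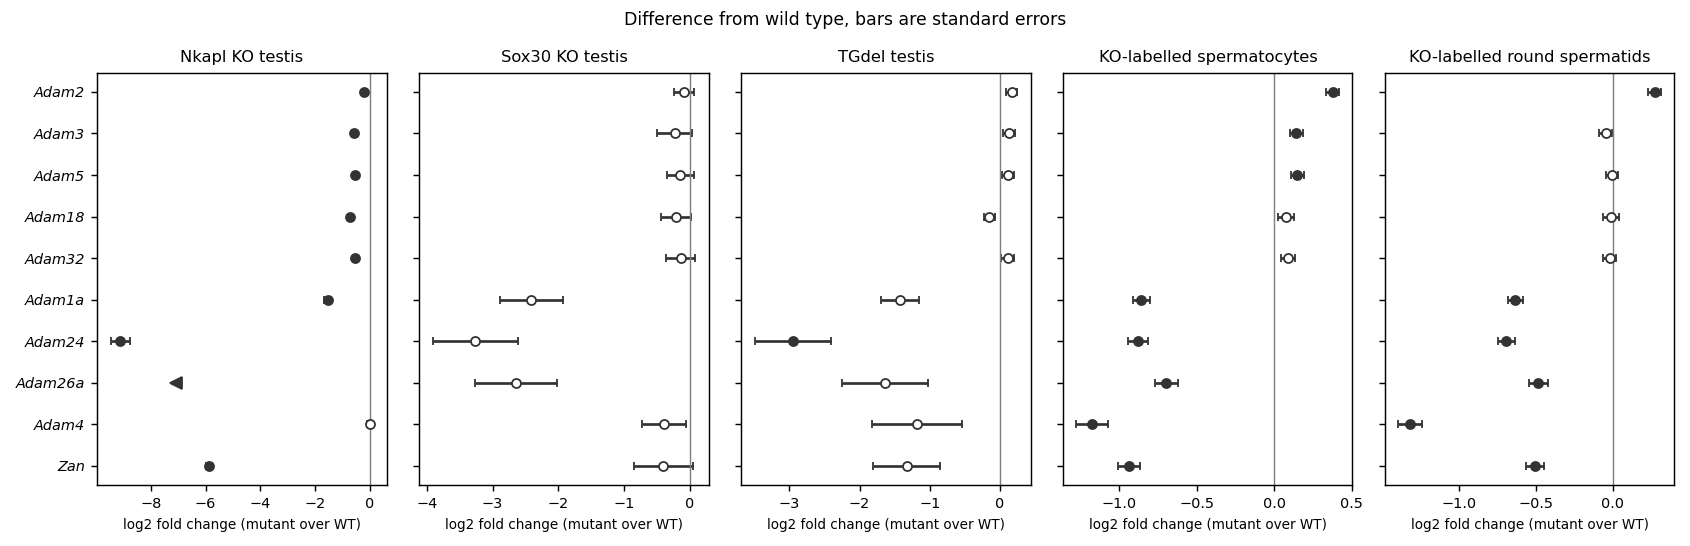
Log2 fold change from wild type for each gene with its standard error in the 5 comparisons of genotype (filled where the adjusted p is under 0.05, triangle for the bound of Adam26a, which had no reads in Nkapl knockout testis); the horizontal scales differ between panels. Adam1a, Adam24, Adam26a and Zan lie below 0 in all 5 panels, while Adam2, Adam3, Adam5, Adam18 and Adam32 stay within 0.72 of 0.

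Sox30 encodes a transcription factor of spermatocytes and spermatids, and its knockout asks which transcripts depend on it. None of the 10 genes passed the threshold with libraries grouped by heading, where 2.42% of 17816 tested genes were called (1552 at an unadjusted p under 0.05). Of the members, 3 were under 0.05 unadjusted. DESeq2 called 3 members, where it called 137 genes higher and 628 lower. Adam1a, Adam24 and Adam26a were lower in both knockout libraries than in every wild-type library. Groups of so few libraries can part without a difference in level, and the share of all genes that did so was not counted. Adam24 measured 18.2, 36.9 and 12.1 CPM in wild type, and 1.07 and 3.60 CPM in knockout (log2 -3.27 ± 0.65, adjusted p = 0.0548). Adam1a measured 14.9, 26.6 and 8.68 CPM in wild type, and 3.74 and 2.54 CPM in knockout (log2 -2.41 ± 0.48, adjusted p = 0.0561). Adam26a measured 11.8, 20.2 and 6.41 CPM in wild type, and 0.962 and 3.12 CPM in knockout (log2 -2.65 ± 0.62, adjusted p = 0.107).

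These 3 genes were called lower when wild type 3, recorded as knockout, was left out, with 3.44% of tested genes called lower. Their log2 changes were then -2.74 ± 0.34 for Adam1a (adjusted p = 0.00419), -3.58 ± 0.56 for Adam24 (adjusted p = 0.0130) and -2.98 ± 0.52 for Adam26a (adjusted p = 0.0204). Without wild type 2, 1 of the 10 was called, Adam1a. The remaining 7 genes overlapped between the groups. Zan measured 38.4, 61.8 and 39.0 CPM in wild type, and 16.8 and 53.3 CPM in knockout (log2 -0.40 ± 0.45, adjusted p = 0.9995), so knockout library 2 was higher than 2 of the 3 wild-type libraries. Adam3 ran from 497.8 to 806 CPM in wild type and was 404 and 650 CPM in knockout, and Adam2, Adam5, Adam18, Adam32 and Adam4 had log2 changes from -0.09 to -0.40.

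The libraries of this set differed much among themselves. Wild type 2 was the highest of the 5 for all 10 genes, and knockout 2 was above knockout 1 for 8 of them. The round spermatid markers ranked the wild-type libraries as Adam1a, Adam24 and Adam26a did, with sums of 301.7, 470.6 and 208 CPM, and summed to 77.5 and 122.6 CPM in knockout, where Prm1 and Spaca7 were at 0. Of 14 round spermatid markers, 9 fell. Epididymal markers, 12 in number, summed to 3.47 to 8.91 CPM in wild type and to 38.2 and 73.8 CPM in knockout, and 4 of the 5 tested rose. Adam7, an ADAM gene of the epididymis, went with them at 0.064 CPM in wild type and 9.75 CPM in knockout (log2 7.17 ± 0.32, adjusted p = 0.000683). The epididymal list also summed to 137.3 to 155 CPM in round spermatids labelled wild type and 57.5 to 61.1 CPM in those labelled knockout. Its sum is therefore not particular to the epididymis. The part of either marker list in the results was not tested.

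The TGdel comparison asks how an altered Nkapl allele changes the testis. Adam24 fell, and it was the only 1 of the 10 that passed with libraries grouped by heading, where 1.05% of 16011 tested genes were called lower. It measured 13.9 and 9.09 CPM in wild type, and 0.301, 1.30 and 2.82 CPM in TGdel (log2 -2.95 ± 0.55, adjusted p = 0.0472). That call was lost without wild type 1 (adjusted p = 0.497), without wild type 2 (adjusted p = 0.127) and without TGdel 2 (adjusted p = 0.197), and with DESeq2 (adjusted p = 0.0795). Adam1a had 16.8 and 11.1 CPM in wild type, and 3.86, 4.64 and 7.13 CPM in TGdel (log2 -1.42 ± 0.27, adjusted p = 0.0505). It was called without TGdel 1 (adjusted p = 0.0254), without TGdel 3 (adjusted p = 0.0398) and with DESeq2 (adjusted p = 0.00124). Zan had 17.5 and 12.0 CPM in wild type, and 2.17, 4.97 and 10.4 CPM in TGdel (log2 -1.33 ± 0.48, adjusted p = 0.229). Adam26a had 8.16 and 7.77 CPM in wild type, and 0.422, 2.26 and 4.95 CPM in TGdel (log2 -1.64 ± 0.61, adjusted p = 0.248).

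The groups did not overlap for these 4 genes, nor for Adam4 and Adam18, which were lower in TGdel, and Adam2, which was higher, none of these 3 called. With so few libraries, groups can part without a difference in level, and the share of all genes that did so was not counted. In each of the 4 genes TGdel 3, the library recorded as wild type, was the TGdel library nearest to wild type. With the libraries on which heading and record give the same group, 1 wild type against 2 TGdel, 3 of the 10 were called lower, against 1.97% of tested genes. These were Adam1a (log2 -1.98 ± 0.26, adjusted p = 0.0117), Adam24 (-4.09 ± 0.52, adjusted p = 0.0103) and Zan (-2.28 ± 0.39, adjusted p = 0.0231). The single wild-type library was there assumed to vary like the others. Adam2, Adam3, Adam5, Adam18 and Adam32 had log2 changes from -0.15 to 0.17, none called. Round spermatid markers summed to 297.4 and 214.3 CPM in wild type, and to 103.5, 152.9 and 195.6 CPM in TGdel, with Prm1 at 0 in TGdel. Of the 13 tested, 0 were called by edgeR and 9 were under 0.05 unadjusted. Epididymal markers summed to 49.3 CPM in wild type 1, 28.5 CPM in TGdel 1 and 4.199 to 6.33 CPM in the other libraries. Rn45s took 0.497% of counts in TGdel 1, the lowest library for Adam1a, Adam24, Adam26a and Zan, and 0.0598% to 0.0713% in the other 4 libraries of the set. Their part in the differences was not tested. Adam4 was low, at 0.732 and 0.606 CPM in wild type and from 0.0565 to 0.422 CPM in TGdel.

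The effects of the Nkapl and Sox30 knockouts were compared in a joint fit of the 15 testis libraries. Zan fell further in Nkapl than in Sox30 knockout testis, by a log2 difference of -5.45 ± 0.77 (adjusted p = 0.00227). It was the only member called, with 3.84% of 17647 genes called. DESeq2 called 3 members, all in that direction, where it called 138 genes higher and 786 lower. The lack of a call does not show that the effects on a member were equal. The difference between the effects of the Nkapl knockout and of TGdel on Zan was -4.55 ± 0.86 (adjusted p = 0.0478, with 0.295% of genes called), and it was not called with the libraries on which heading and record give the same group (adjusted p = 0.606).

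Round spermatids are the haploid cells that follow the meiotic spermatocytes. Between these cell types the genes with few exons and Zan changed most. In the libraries labelled wild type, 9 of the 10 genes were higher in round spermatids, against 41.1% of 15805 tested genes. Zan measured 69.4 and 61.4 CPM in spermatocytes and 205 and 205 CPM in round spermatids (log2 1.65 ± 0.06, adjusted p = 2.54e-20). Adam24 rose from 98.6 and 87.1 CPM to 263 and 288 CPM (log2 1.57 ± 0.06), Adam26a from 46.7 and 42.1 CPM to 121 and 135 CPM (log2 1.53 ± 0.06), and Adam1a from 108.9 and 105.3 CPM to 288 and 287 CPM (log2 1.42 ± 0.05). Adam4 rose as strongly, from 21.1 and 20.1 CPM to 61.7 and 66.8 CPM (log2 1.64 ± 0.08, adjusted p = 6.32e-18).

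The ADAM genes with many exons were already abundant in spermatocytes. Adam3 rose from 1307 and 1224 CPM to 1909 and 1907 CPM (log2 0.59 ± 0.04), Adam5 by 0.45 ± 0.04, Adam32 by 0.42 ± 0.04 and Adam18 by 0.15 ± 0.05 on the log2 scale. The call of Adam18 was lost without spermatocyte wild type 2 and without either round spermatid library. Adam2 measured 715 and 714.5 CPM in spermatocytes and 682 and 718 CPM in round spermatids (log2 -0.03 ± 0.04, adjusted p = 0.520), and it was called lower only without round spermatid wild type 2 (log2 -0.12, adjusted p = 0.0341). In the libraries labelled knockout 8 of 10 were higher in round spermatids, against 37.7% of tested genes, and 1 was lower, against 39.3%. That gene was Adam2 (log2 -0.14 ± 0.04, adjusted p = 0.00469, but 0.205 with DESeq2 and 0.0524 without round spermatid knockout 2). Zan rose there by 2.08 ± 0.07 on the log2 scale.

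**Figure D3:**
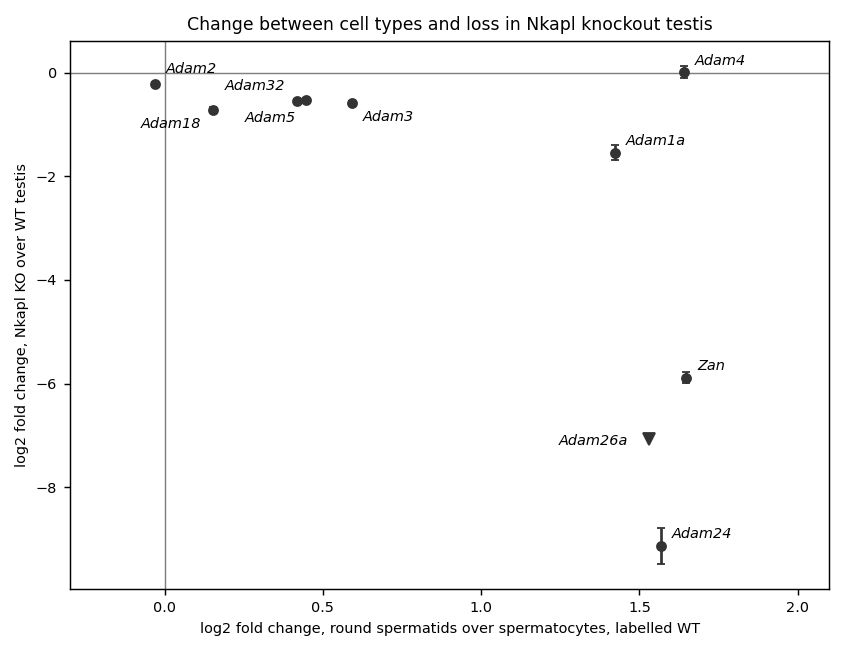
Log2 fold change between round spermatids and spermatocytes labelled wild type (horizontal) against log2 fold change between Nkapl knockout and wild-type testis with its standard error (vertical), 1 point per gene and no shared libraries; the triangle is the bound of Adam26a. Adam1a, Adam24, Adam26a and Zan are at the lower right, and Adam4 lies at 1.64 on the horizontal axis and 0.01 on the vertical axis.

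Adam4, with a log2 rise from spermatocytes to round spermatids of 1.64 beside 1.65 for Zan and 1.57 for Adam24, was the only member with overlapping groups in Nkapl knockout testis. How many of all genes overlapped there was not counted. Its level also ranged between the testis sets, which were scaled apart, from 8.18 to 9.84 CPM in wild type of the Nkapl set, 4.79 to 10.4 CPM in the Sox30 set and 0.606 to 0.732 CPM in the TGdel set. Whether reads of Cox16, inside which it lies, entered its counts was not tested.

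Sorted cells of the knockout label were compared with those of the wild-type label within each cell type. In spermatocytes 5 of the 10 genes fell and 3 rose, against 25.7% and 33.6% of 15805 tested genes. Zan measured 69.4 and 61.4 CPM in the libraries labelled wild type and 36.0 and 32.2 CPM in those labelled knockout (log2 -0.94 ± 0.07, adjusted p = 1.64e-12). Adam4 fell from 21.1 and 20.1 CPM to 8.50 and 9.71 CPM (log2 -1.18 ± 0.10), Adam24 from 98.6 and 87.1 CPM to 49.8 and 51.0 CPM (log2 -0.88 ± 0.06), Adam1a from 108.9 and 105.3 CPM to 59.7 and 58.5 CPM (log2 -0.86 ± 0.06), and Adam26a from 46.7 and 42.1 CPM to 27.1 and 27.6 CPM (log2 -0.70 ± 0.07). Adam2 rose from 715 and 714.5 CPM to 933 and 925 CPM (log2 0.38 ± 0.04, adjusted p = 8.60e-09). Adam3 (log2 0.14 ± 0.04, adjusted p = 0.00384) and Adam5 (0.15 ± 0.04, adjusted p = 0.00171) rose slightly, but neither was called when the 4 spermatocyte libraries were fitted alone (adjusted p = 0.237 and 0.159). Adam18 (0.08 ± 0.05) and Adam32 (0.09 ± 0.04) were not called, except without wild type 1 (adjusted p = 0.0232 and 0.000836).

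In round spermatids 5 genes fell and 1 rose, against 31% and 29% of the tested genes. Adam4 fell most, from 61.7 and 66.8 CPM to 27.1 and 24.3 CPM (log2 -1.32 ± 0.08, adjusted p = 4.77e-15). Adam24 went from 263 and 288 CPM to 170 and 170 CPM (log2 -0.69 ± 0.06), Adam1a from 288 and 287 CPM to 188 and 182 CPM (log2 -0.64 ± 0.05), Zan from 205 and 205 CPM to 145 and 144 CPM (log2 -0.51 ± 0.06), and Adam26a from 121 and 135 CPM to 91.1 and 92.0 CPM (log2 -0.49 ± 0.06). These 5 are the genes that fell in spermatocytes, and each comparison has its own wild-type libraries. Adam2 rose from 682 and 718 CPM to 848 and 842 CPM (log2 0.27 ± 0.04, adjusted p = 2.78e-06). Adam3, Adam5, Adam18 and Adam32 had log2 changes from -0.05 to -0.0044, none called by edgeR or DESeq2.

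**Figure D4:**
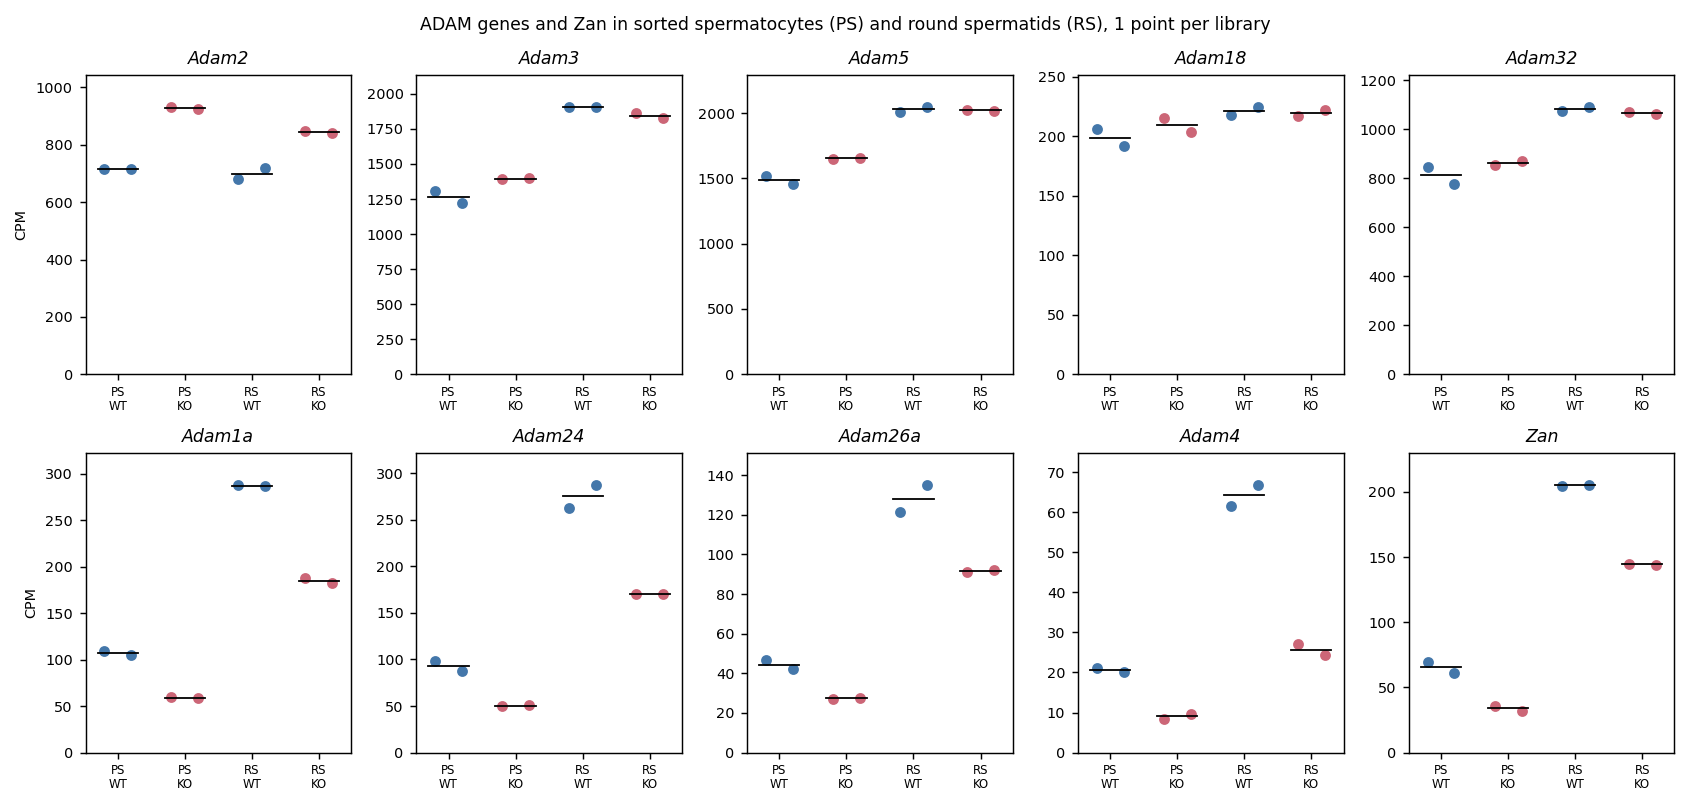
CPM in each sorted library (1 point each, line at the mean of 2, vertical axes from 0) for pachytene spermatocytes (PS) and round spermatids (RS) labelled wild type or knockout. Adam1a, Adam24, Adam26a, Adam4 and Zan are lower in both knockout libraries of each cell type, and Adam2 is higher. The share of all genes that parted in this way was not counted.

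Sorted cells were scaled apart from testis, and the sizes of the falls in sorted cells and in testis were not tested against each other. Round spermatid markers moved with the genes here too. They summed to 2111 to 2180 CPM in spermatocytes labelled wild type and 1219 to 1230 CPM in those labelled knockout, and to 5963 to 6219 CPM and 3323 to 3339 CPM in round spermatids, and 14 of 14 fell in each cell type. Sertoli cell markers summed to 232.2 to 247.8 CPM and 164.8 to 165.9 CPM in the spermatocyte groups, and macrophage markers to 19.2 to 19.4 CPM and 41.0 to 41.1 CPM in the round spermatid groups. No round spermatid, Sertoli cell or macrophage marker was at 0 in any sorted group. Leydig cell markers summed to 9.63 to 9.71 CPM and 22.6 to 23.6 CPM in the round spermatid groups, where 6 of 7 rose. Peritubular myoid cell markers summed to 102.2 to 103.3 CPM and 42.4 to 46.6 CPM in the spermatocyte groups and to 273.3 to 280.3 CPM and 120.4 CPM in the round spermatid groups. Sertoli cell markers averaged only 29.55 CPM and 36.0 CPM in the round spermatid groups. Whether the sum of the myoid list came from myoid cells was not tested. HTSeq's summary lines, which name no gene and were left out, held 18.755% to 19.999% of the counts in the files labelled wild type and 23.2% to 24.6% in those labelled knockout, with no overlap in either cell type. The part of these differences in the results was not tested.

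The difference between the effects in the 2 cell types was called for 4 of the 10, with 25.5% of tested genes called (1426 higher and 2599 lower, or 1941 and 1902 with DESeq2's size factors). Zan fell less in round spermatids than in spermatocytes, by a log2 difference of 0.43 ± 0.09 (adjusted p = 0.000715), and so did Adam1a, by 0.22 ± 0.07 (adjusted p = 0.0267). Adam3 (-0.19 ± 0.06, adjusted p = 0.0158) and Adam5 (-0.15 ± 0.06, adjusted p = 0.0409) differed the other way, between a small rise in spermatocytes and a value near 0 in round spermatids. The call of Adam1a was lost without either spermatocyte knockout library or without round spermatid knockout 1. Those of Adam3 and Adam5 were lost with DESeq2 (adjusted p = 0.154 and 0.299) and without either spermatocyte knockout library or any 1 round spermatid library. With DESeq2's size factors in edgeR they were lost too (adjusted p = 0.112 and 0.250), while Adam24 (log2 0.25 ± 0.09, adjusted p = 0.0347) and Adam26a (0.27 ± 0.10, adjusted p = 0.0383) were called, so that the 4 called members were then all higher.

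Of 15 other ADAM genes of the reproductive tract, 14 were matched in the files and 12 were tested in Nkapl knockout testis. There 11 of the 12 fell, against 26.1% of all tested genes. The fitted median over the 12 was -7.01 on the log2 scale, against 0.0073 for all genes. It was -4.47 with the 8 genes of 0 to 3 knockout reads set at their bound or ratio. The 11 that fell have 1 to 4 exons, a property looked at after their values were seen. Adam20 had 2 reads in knockout against 553 in wild type (ratio 193, 95% exact interval 53.3 to 1601), Adam39 had 1 against 308 (ratio 215, interval 38.4 to 8537), and Adam26b, the near copy of Adam26a, had 2 against 266 (ratio 93.0, interval 25.5 to 772). Adam1b, the copy of Adam1a, fell less, from 100.7 to 53.3 CPM on average (log2 -0.93 ± 0.06). All 11 of these genes that were tested in sorted cells were higher in round spermatids than in spermatocytes labelled wild type, against 41.1% of all tested genes. Among them were Adam6a (log2 1.60 ± 0.07), Adam39 (1.54 ± 0.07), Adam20 (1.51 ± 0.06) and Adam6b (1.51 ± 0.07).

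In spermatocytes labelled knockout 9 of 11 such genes fell and 1 rose, against 25.7% and 33.6% of all tested genes. Adam21 was at -1.69 ± 0.11, Adam29 at -1.43 ± 0.09, Adam6b at -1.29 ± 0.09 and Adam20 at -0.84 ± 0.07 on the log2 scale. In round spermatids 8 fell and 2 rose, against 31% and 29% of all tested genes. Adam21 was there at -1.57 ± 0.08, Adam34 at -1.50 ± 0.09, Adam6b at -1.30 ± 0.07 and Adam6a at -1.07 ± 0.07. In Sox30 knockout testis 2 of 12 fell and 1, Adam7, rose, with 2.42% of all tested genes called. Adam29 had 1 read in knockout against 562 in wild type (ratio 380, interval 67.9 to 15020). Adam6a had 1 against 484 (ratio 327, interval 58.4 to 12940). Adam6b was not called, but it had 0 reads against 294, at least 66.19-fold lower with the floor set at 3 counts over the group. The calls of Adam29 and Adam6a were lost without knockout 1 (adjusted p = 0.257 and 0.279), knockout 2 (0.174 and 0.189) or wild type 1 (0.117 and 0.122). In TGdel testis 1 of 10 fell, against 1.05% of all tested genes. That gene was Adam21 (log2 -3.43 ± 0.52, adjusted p = 0.0258), a call lost without wild type 1 (adjusted p = 0.414), wild type 2 (0.0738) or TGdel 2 (0.130). The broadly expressed ADAM genes moved both ways in Nkapl knockout testis, where 17.8% of all tested genes rose and 26.1% fell. Of 11 such genes 3 rose, among them Adam17, the sheddase that frees TNF (log2 0.21 ± 0.05), and Adam10, which cleaves Notch (0.19 ± 0.05), and 3 fell, among them Adam15 (-0.42 ± 0.07) and Adam11 (-0.47 ± 0.11). The call of Adam17 was lost without knockout 2 (adjusted p = 0.0707) and that of Adam10 without knockout 1 (adjusted p = 0.0659).

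The genes whose products fold, process or carry ADAM3 moved both ways. In Nkapl knockout testis 7 of 17 fell and 1 rose, against 26.1% and 17.8% of all tested genes. Pdilt, which encodes a disulfide isomerase-like chaperone of the spermatid, fell from 16.0 to 0.154 CPM on average (log2 -6.69 ± 0.30, adjusted p = 8.72e-12). The falls of Cmtm2a (-0.88 ± 0.04), Cmtm2b (-0.95 ± 0.05) and Lypd4 (-0.71 ± 0.04) stood beside -0.59 for Adam3 and -0.72 for Adam18. Pdilt was also the only 1 of 18 called in Sox30 knockout testis (log2 -5.42 ± 0.62, adjusted p = 0.00685), a call lost without knockout 1 (adjusted p = 0.107) or knockout 2 (0.0642).

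In sorted cells of the knockout label the partners that fell included Prss37, a serine protease-like gene, Calr3, which encodes a chaperone needed for ADAM3, and Ace, whose testis form acts on ADAM3. Prss37 fell by 1.52 ± 0.09 in spermatocytes and by 1.82 ± 0.07 in round spermatids, Calr3 fell by 1.29 ± 0.08 and by 1.51 ± 0.07, and Ace fell by 1.24 ± 0.05 and by 1.26 ± 0.05 on the log2 scale. Pdilt fell by 0.57 ± 0.05 in spermatocytes and Pmis2 fell by 0.84 ± 0.07 in round spermatids. In all, 6 of 18 fell and 8 rose in spermatocytes, against 25.7% and 33.6% of all tested genes, and 8 fell and 7 rose in round spermatids, against 31% and 29%. Among convertases and inhibitors Pcsk4, the proprotein convertase of germ cells, fell in Nkapl knockout testis (log2 -0.66 ± 0.04), in spermatocytes (-0.44 ± 0.05) and in round spermatids labelled knockout (-1.03 ± 0.05). In Nkapl knockout testis 5 of the 8 tested rose, against 17.8% of all tested genes, among them Furin (0.40 ± 0.04), Timp3 (0.32 ± 0.05) and Timp2 (0.17 ± 0.04).

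**Figure D5:**
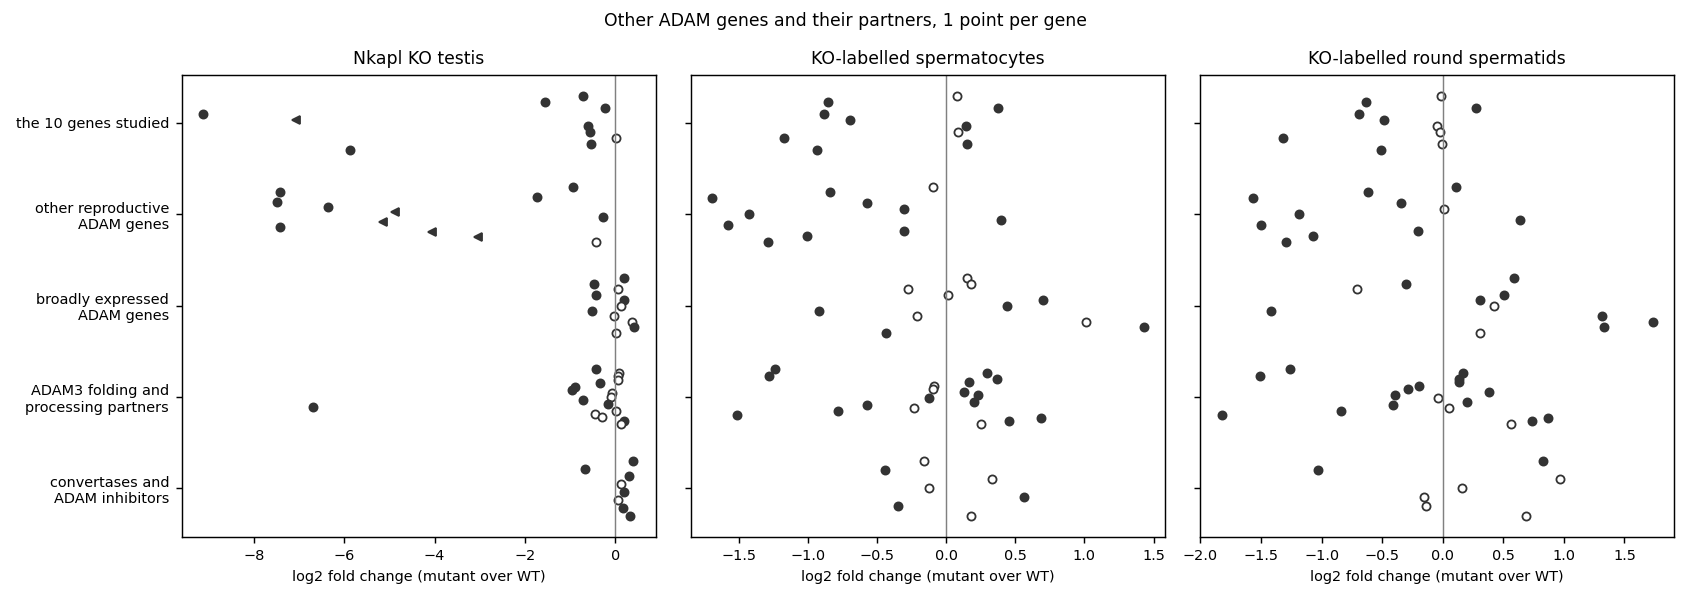
Log2 fold change of each tested gene in 5 gene lists (rows) for Nkapl knockout testis and for the sorted cells labelled knockout (filled where the adjusted p is under 0.05, triangles for bounds of genes with no reads in the knockout, fitted values otherwise); the horizontal scales differ between panels. Among the other reproductive ADAM genes Adam20 is at -7.42 in testis, and Adam15 and Adam11 of the broadly expressed ADAM genes are at -0.42 and -0.47.

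The patterns of single members were described by Pearson's r of log2 CPM, with no test, since libraries of a set share their set and genotype. Over the 15 testis libraries the genes most like Adam3 were Papolb (r = 0.98), Cptp (0.97), Fhl4 (0.96), Tdrd7 (0.96) and Agbl4 (0.96). Those most like Zan were Tpte (0.99), Celf3 (0.99), Fer1l5 (0.99), Speer5-ps1 (0.99) and Kcnj6 (0.98). Among the members Adam24 ran closest to Adam26a (0.98), Adam3 to Adam32 (0.97) and Adam2 to Adam5 (0.97), and Zan and Adam2 were at -0.00066. Over the 8 sorted libraries the genes most like Adam3 included Agtpbp1, Ppp4r4, Cep19 and Smc1b (r from 0.995 to 0.998), and Zan was most like Mut, Ankrd53, Tnrc18, Necab3 and Fam78a (0.998 to 0.999).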

How the data were processed

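The authors deposited unscaled read counts for each gene, and per the labels' protocols they come from TRIzol RNA and stranded total RNA libraries made with a TruSeq kit. The submitters' processing notes name mm10 and the tools HISAT2 (2.1.0), HTSeq and DESeq2, while annotation and strandedness in counting were not given in the sources used here. HTSeq's summary lines in the sorted files were left out. Identical files were counted once. The members, lists and tests were chosen with earlier results of these data known.

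Low genes were removed by group with filterByExpr and libraries were TMM-scaled. The testis sets were fitted apart, the 8 sorted libraries together, and differences of testis effects in 1 fit of 15 libraries (edgeR 4.0.16 in R 4.3.3, quasi-likelihood F test, two-sided, Benjamini-Hochberg over all genes tested, adjusted p under 0.05). The SE was derived from the log2 fold change and its F statistic. The fit was tested on simulated data. Genes with 1 to 3 counts in a group are given as ratios with 95% exact intervals and those with 0 as bounds against 3 counts over the group. Named genes are the 10 members, Nkapl, Sox30, up to 4 genes of smallest p per list (of those, the called ones), and for Adam3 and Zan the 5 most correlated genes with a mean log2 CPM of at least 1. One of these is not reported here. Transcripts were compared with blastn 2.17.0. Alternatives were DESeq2 1.42.0, its size factors in edgeR, no filter, leaving out each library, a replicate block, other fits and other groupings of libraries.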

Additional observations from a re-analysis of the deposited data

Results flagged for a closer look

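The effect of the knockout label differed between sorted cell types, by a test of the difference itself, for Adam1a (round spermatids minus spermatocytes, log2 0.22), Adam3 (-0.19), Adam5 (-0.15) and Zan (0.43). The spermatocyte libraries labelled knockout hold more Nkapl than those labelled wild type, so the direction in spermatocytes rests on labels that the targeted gene goes against. The effect on Zan differed between Nkapl knockout and Sox30 knockout testis (log2 difference -5.45) and between Nkapl knockout and TGdel testis (-4.55). The Nkapl and TGdel difference was called in the fit of all 15 testis libraries with an adjusted p of 0.0478, and it lost the call in every fit without 1 library except the fit without TGdel 1.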

How the results depend on the processing

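By heading, 9 members were called in Nkapl knockout testis, 8 and 6 in spermatocytes and round spermatids labelled knockout, and 9 between cell types under each label, and these counts stayed within 1.5 times under every alternative except grouping by file record, which called 0 in Nkapl knockout testis. The joint testis fit did not call Adam2 (adjusted p = 0.242, edgeR) or Adam3 (0.0518) in Nkapl knockout testis. In Sox30 knockout testis, where 0 were called, DESeq2, the libraries on which heading and record agree and the joint testis fit called 3 each, no filter called 2, and leaving out 1 library called 0 to 3. In TGdel testis, where 1 was called, grouping by agreement called 3, file record and no filter called 0, and leaving out 1 library called 0 to 2. For the difference between cell types, where 4 were called, DESeq2 and no filter called 2, and leaving out 1 library called 1 to 6. For the Nkapl and Sox30 difference, where 1 was called, DESeq2 called 3, file record 0, and leaving out 1 library 1 to 4. Over all genes DESeq2 called 138 higher and 786 lower there. For the Nkapl and TGdel difference, where 1 was called, DESeq2 called 3, size factors, agreement and file record 0, and leaving out 1 library 0 to 3. The replicate numbers do not pair the libraries by any label, and deviations of same-numbered libraries correlated at -0.061 to 0.055 except Sox30 replicate 2 at 0.361. A replicate block called 6 members in Sox30 knockout testis, where it called 358 genes higher and 1370 lower. It called 0 members in TGdel testis and in the Nkapl and TGdel difference, and it left the other member counts as they were. In single genes named in the text, 767 values under settings that kept all libraries or regrouped them held their call and direction, 64 lost a call, 25 gained one and 13 changed sign. Over all genes, calls in Nkapl knockout testis went from 3013 higher and 4420 lower to 833 and 2518 in the joint fit and 0 by file record. Lower calls in Sox30 knockout testis went from 342 to 628 with DESeq2, 610 by agreement and 713 in the joint fit. They went to 1370 with the replicate block, 0 by file record and 7 to 610 without 1 library. Lower calls in TGdel testis went from 168 to 365 with DESeq2, 320 by agreement, 76 with no filter, 0 with the block and by file record, and 0 to 405 without 1 library. Lower calls for the difference between cell types went from 2599 to 1228 with DESeq2 and 1681 with no filter, and to 1417 to 2977 without 1 library. For the Nkapl and Sox30 difference they went from 627 to 90 by agreement and 0 by file record, and to 75 to 1724 without 1 library, and for the Nkapl and TGdel difference from 47 to 666 with DESeq2, 82 with no filter, 5 with size factors, 1 with the block and 0 by agreement, and to 0 to 502 without 1 library. Signs reversed only for values that were not called. By file record in TGdel testis Adam2, Adam3, Adam5, Adam32 and Nkapl had log2 changes of -0.060, -0.11, -0.055, -0.13 and -0.054, and Adam32 had -0.0027 by agreement. In round spermatids Adam5, Adam18 and Adam32 had 0.020, 0.013 and 0.0025 with DESeq2 and with size factors, and Adam5 had 0.00036 with the cell type fitted alone. Without 1 library Adam4 ran from -0.040 to 0.10 in Nkapl knockout testis. In Sox30 knockout testis Adam2 ran from -0.28 to 0.069, Adam3 from -0.62 to 0.067, Adam5 from -0.41 to 0.073, Adam18 from -0.51 to 0.026, Adam32 from -0.44 to 0.11, Zan from -1.47 to 0.20. The cause of these changes was not tested. Low read numbers limit the precision for Adam4 in the TGdel set, with 1 to 13 reads per library, and for genes with 0 to 3 reads in a group.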
